A study of Bos taurus with 12 samples.

Results

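Immunoglobulin and plasma cell genes were followed in laser-captured mammary stroma and epithelium of dry Holstein cows. The genes listed were IGHM, IGCGAMMA, JCHAIN, POU2AF1, MZB1, CD79A, CD79B, MS4A1 and TNFRSF17, and every probe set whose only annotated gene symbol was one of them was taken. Of these 9 genes, 7 had such a probe set, with 9 probe sets among the 24016 on the array that are not controls. By the same rule, 9155 genes of the series had a probe set of their own. CD79B and TNFRSF17 were not analysed here. The genes were chosen on their stroma and epithelium values in these same arrays, so the difference between the tissues is given for them as a description, with no p-value, and how many passed the fit of the whole array is counted once beside the share of all probe sets that did.

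Each of 6 cows, pregnant, not milked and 3 weeks from calving, gave 1 array of intralobular stroma and 1 array of epithelium, 12 arrays in all. Before freezing, the biopsies had been cultured as explants for 2 h with BrdU, hydrocortisone and insulin added, so no array is of untreated tissue. By the labels, cow 1 was at lactation number 3, cow 2 at lactation number 2 and the others at lactation number 1, while the methods call all the cows multiparous. Intralobular stroma is a mixture of cell types, and the captures were steered towards its fibroblasts and away from vessels and from immune cells that could be seen. Slides of a sample were pooled, and the RNA was amplified before hybridization to the bovine GeneChip.

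Plasma cells are the end stage of the B cell lineage and secrete antibody, a protein of paired heavy and light chains. In the mammary gland they lie in the connective tissue beside the alveoli, and the epithelium carries antibody across to the milk with receptors of its own. In ruminants, which pass antibody to the newborn through colostrum, IgG is the main class moved in the weeks before calving, and much of it comes from blood.

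The stroma arrays carried high levels of the genes for secreted antibody, and the epithelium arrays carried low ones. IGHM (the IgM heavy chain), IGCGAMMA (the IgG heavy chain constant region), JCHAIN (the chain that joins IgM or IgA units) and POU2AF1 (a B cell coactivator of transcription) were higher in stroma than in epithelium in all 6 cows, with mean differences of 4.67 to 7.57 on the log2 scale over their 5 probe sets. Of all 24016 probe sets, 6.92% were higher in stroma in all 6 cows. The genes that mark B cells by their surface, CD79A (a signalling chain of the B cell receptor) and MS4A1 (the CD20 antigen), were near the background of the arrays, except CD79A in the stroma of cow 3. Array background is set here by the medians of the 12 arrays, which lay between 2.95 and 3.08. All values are log2 RMA values, and since probe sets bind their targets with different strength, the level of one gene is not set against that of another.

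**Figure D1:**
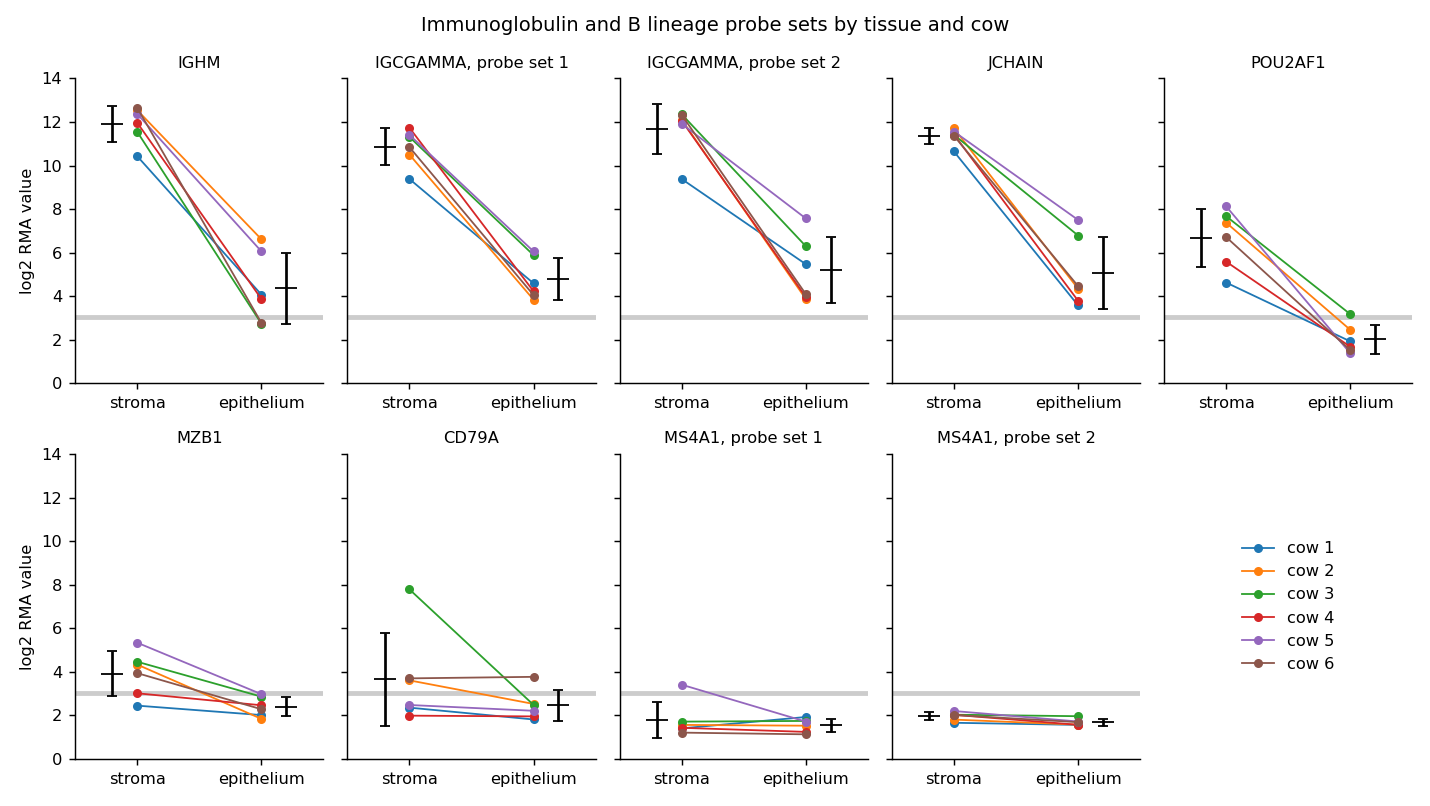
Log2 RMA value (vertical axis) of each of the 9 probe sets in stroma (left) and epithelium (right), with a line for each of the 6 cows and the mean and SD of the tissue beside the points. The grey band spans the array medians, 2.95 to 3.08. IGHM, IGCGAMMA, JCHAIN and POU2AF1 separate the tissues in all 6 cows, and MS4A1 lies below the band in all but 1 array.

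The heavy chain genes come first. IGHM had values of 10.43, 12.54, 11.55, 11.97, 12.37 and 12.65 in the stroma of cows 1 to 6, against 4.07, 6.61, 2.74, 3.87, 6.06 and 2.77 in the epithelium of the same cows. The lowest stroma array lay far above the highest epithelium array, and in epithelium the gene was below the array medians in cows 3 and 6. The means were 11.92 ± 0.84 in stroma and 4.35 ± 1.64 in epithelium (SD, n = 6 each), a difference of 7.57 (SE 0.58), for which no fold is given because those 2 epithelium arrays were at background.

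IGCGAMMA was read by a pair of probe sets. The first had 9.38, 10.50, 11.31, 11.73, 11.40 and 10.84 in stroma, against 4.59, 3.83, 5.88, 4.22, 6.05 and 4.04 in epithelium. The second had 9.38, 12.11, 12.35, 12.06, 11.92 and 12.33 in stroma, against 5.46, 3.86, 6.29, 3.96, 7.57 and 4.09 in epithelium. Both placed every stroma array above every epithelium array, and both placed cow 1 lowest in stroma and cow 5 highest in epithelium. The stroma minus epithelium difference was 6.09 (SE 0.45, 68.3-fold) by the first and 6.49 (SE 0.69, 89.6-fold) by the second. The paired probe sets followed each other over the 6 cows, with r = 0.83 in stroma and r = 0.96 in epithelium, values that describe the same RNA read from shared arrays. By their names, these probe sets may also bind other transcripts of related sequence, so they cannot be assigned to a single IgG subclass.

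JCHAIN had the tightest stroma values of the 4 genes, 10.64, 11.70, 11.41, 11.42, 11.56 and 11.37 in cows 1 to 6, against 3.57, 4.34, 6.78, 3.79, 7.50 and 4.46 in epithelium. The groups did not overlap, and in epithelium cows 3 and 5 stood above the other 4. The means were 11.35 ± 0.37 in stroma and 5.07 ± 1.65 in epithelium (SD, n = 6 each), a difference of 6.28 (SE 0.56, 77.6-fold).

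The next members act inside the cell. POU2AF1, which works with octamer-binding factors at immunoglobulin promoters, had 4.62, 7.37, 7.67, 5.58, 8.12 and 6.71 in stroma, against 1.92, 2.45, 3.17, 1.67, 1.37 and 1.51 in epithelium. Every stroma array was above every epithelium array, and in epithelium only cow 3 reached above the array medians, so the difference of 4.67 (SE 0.52) was measured against background. MZB1, an endoplasmic reticulum protein that helps IgM assembly in mouse B cells, had 2.45, 4.33, 4.46, 3.01, 5.34 and 3.94 in stroma, against 2.01, 1.84, 2.86, 2.46, 2.97 and 2.28 in epithelium. MZB1 was higher in stroma in each of the 6 cows, but the ranges overlapped and cows 1 and 4 were at or below background in both tissues. Its difference was 1.52 (SE 0.34).

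CD79A had 2.36, 3.61, 7.79, 1.99, 2.48 and 3.70 in stroma, against 1.81, 2.52, 2.48, 1.95, 2.21 and 3.77 in epithelium. The stroma of cow 3 stood alone, and cow 6 was slightly lower in stroma than in epithelium. The mean difference of 1.19 (SE 0.72) therefore rests on 1 array. The paired probe sets of MS4A1 had no stroma array above 3.41, in cow 5, and differed between the tissues by 0.24 and 0.28.

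Read against the array, 5 of the 9 probe sets were among those tested (the brightest probe sets, with a mean over the 12 arrays of at least 3.57), and all 5 (the 4 genes from IGHM to POU2AF1) passed an adjusted p of 0.05 as higher in stroma in limma with cow as a block. Over all tested probe sets, 455 passed in that direction, or 4.54%. Every stroma array lay above every epithelium array for the same 5, and for 340 of the tested probe sets, or 3.39%. Nothing is read from these counts, since this contrast chose the genes. The members outside the tested probe sets are those of MZB1, CD79A and MS4A1.

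In captured tissue, more cells of a type and more RNA per cell cannot be told apart. The captures themselves separated as labelled: a list of 10 fibroblast genes averaged 9.66 to 10.33 in stroma and 3.59 to 5.98 in epithelium, with all 10 genes past the threshold, and a list of 10 luminal epithelial genes averaged 4.64 ± 0.65 in stroma and 7.70 ± 0.38 in epithelium (SD, n = 6 each), with 9 of 10 past it. Among the stroma arrays the luminal list ran from 3.99 to 5.77, highest in cow 4, against 7.17 to 8.30 in epithelium. The part of epithelial RNA in the stroma values was not tested. Endothelial genes averaged 6.02 ± 0.84 in stroma and 2.69 ± 0.13 in epithelium, and 4 of the 5 tested passed. RNA of vessel cells was thus measured in the stroma captures. Red cell genes, 4 of 4, were below the array medians on average in both tissues, at 1.75 to 2.24 in stroma and 1.70 to 2.06 in epithelium.

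Other immune cells were read by lists that hold several genes near background in both tissues. A list of 13 genes of T cells and natural killer cells averaged 3.45 to 4.57 in stroma and 3.26 to 3.85 in epithelium, was higher in stroma in 4 of 6 cows, and none of its 6 tested genes passed. A list of 8 macrophage genes averaged 4.42 to 5.37 in stroma and 3.71 to 4.16 in epithelium, was higher in stroma in 6 of 6 cows, and 1 of its 5 tested genes (MSR1, a scavenger receptor) passed. In epithelium the fibroblast list was highest in cow 5, at 5.98, and lowest in cow 4, at 3.59. Cow 5 also had the highest IGCGAMMA and JCHAIN there. IGHM was highest there in cow 2, where the list was 3.91, and was 2.77 in cow 6, where the list was 5.26. The part of stromal RNA in the epithelial values was not tested. The poly-A control probe sets ran from 3.88 to 9.99 over the stroma arrays and from 2.91 to 6.05 over the epithelium arrays, highest in the stroma of cows 5 and 6. Without those 2 cows, a choice made after seeing the data, the differences were 7.30 for IGHM, 6.10 and 6.58 for IGCGAMMA, 6.67 for JCHAIN and 4.01 for POU2AF1. The stroma of cows 3 and 4 still had controls of 6.52 and 8.27, above every epithelium array, so leaving those 2 cows out does not balance the control. The part of the control in these differences was not tested.

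The next question was whether these genes varied together from cow to cow within a tissue. Genes were paired where their mean over the 6 arrays of a tissue was above the highest array median, 3.08. In stroma these 6 genes (IGHM, IGCGAMMA by its brighter probe set, JCHAIN, POU2AF1, MZB1 and CD79A) gave 15 pairs, although CD79A exceeded that median in only 3 arrays, those of cows 2, 3 and 6. Pearson's r was above 0 in 14 of them, with a median of 0.67, and ran from -0.02 for IGHM with CD79A to 0.98 for POU2AF1 with MZB1. For IGHM with CD79A, r was 0.57 without cow 3 and -0.61 without cow 1. Cow 1 was the lowest of the 6 for IGHM, IGCGAMMA, JCHAIN, POU2AF1 and MZB1 in stroma. Without cow 1 the median r was 0.15, and the median of Spearman's rho with all cows was 0.37, so the common movement rested largely on 1 animal. The same array had the poly-A control at 3.99, near the lowest of the stroma arrays, and the highest endothelial list, at 6.94. The lowest control in stroma, 3.88, was in cow 2, which had the highest JCHAIN, at 11.70. The part of the control or of endothelial RNA was not tested.

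**Figure D2:**
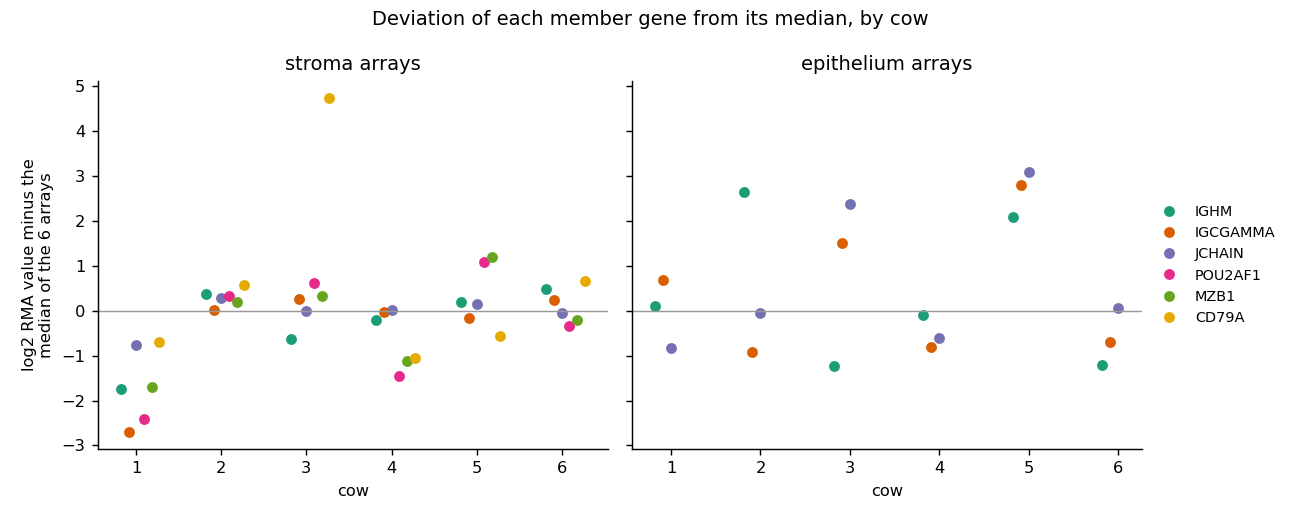
Deviation of each gene from its own median over the 6 arrays of a tissue (vertical axis, log2 RMA value) for cows 1 to 6 (horizontal axis), in stroma (left) and epithelium (right). In stroma the points of cow 1 lie lowest for 5 of the 6 genes, and CD79A stands far above the rest in cow 3. In epithelium IGCGAMMA and JCHAIN are highest in cow 5, and IGHM in cow 2.

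POU2AF1 and MZB1 were the pair that moved together most closely. Over the 6 stroma arrays r was 0.984 (two-sided exact permutation p = 0.00139, the smallest that 720 orders can give, adjusted over the 15 pairs 0.0208), and both genes put the cows in the same order, with rho = 1.0 (exact p = 0.00278, adjusted 0.0417). Without cows 1 and 4, the farthest from the median of POU2AF1, r was 0.94, and with any 1 cow left out it stayed between 0.97 and 1.00. In that order cow 1 was lowest, cow 4 next, and cow 5 highest. MZB1 was at or below background in cows 1 and 4, so the order of those 2 rests on low values. The GAPDH control here is its 3' minus its 5' probe sets on the log2 scale, a measure related to RNA integrity. As a difference of RMA values, it is not the 3' to 5' ratio by which the authors judged the starting RNA suitable. The control was 3.76, 2.80, 2.72, 3.74, 2.31 and 4.75 in the stroma of cows 1 to 6. Its lowest values were in cows 5, 3 and 2, which had the highest POU2AF1 and MZB1. The list of T cell and natural killer cell genes was 3.45, 4.19, 4.09, 3.71, 4.57 and 3.74 over these cows. It too was lowest in cow 1 and highest in cow 5. The luminal epithelial list was 4.81, 3.99, 4.41, 5.77, 4.10 and 4.75, highest in cow 4. The parts of RNA quality, of other lymphocytes and of epithelial RNA in this pair were not tested.

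No other pair passed after adjustment. Next by rank was IGCGAMMA with CD79A, with rho = 0.83 (exact p = 0.0583, adjusted 0.4375) and r = 0.40 (exact p = 0.239, adjusted 0.326). IGHM with JCHAIN had r = 0.887 (exact p = 0.0444, adjusted 0.222) and rho = 0.43 (exact p = 0.419, adjusted 0.651), and r fell to 0.39 without cow 1 and was 0.21 without cows 1 and 3. JCHAIN with POU2AF1 had r = 0.803 (exact p = 0.0403, adjusted 0.222) and rho = 0.60 (exact p = 0.242, adjusted 0.651), and r was 0.43 without cow 1 and 0.57 without cows 1 and 2. IGCGAMMA with JCHAIN had r = 0.905 (exact p = 0.140, adjusted 0.262) and rho = 0.09 (exact p = 0.919, adjusted 0.985), and its sign turned, at -0.56 without cow 1 and -0.48 without cows 1 and 3. Without cow 3 alone, r was 0.93 for IGHM with JCHAIN and 0.92 for IGCGAMMA with JCHAIN. The relation of the heavy chain genes with JCHAIN in stroma thus rests on cow 1.

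**Figure D3:**
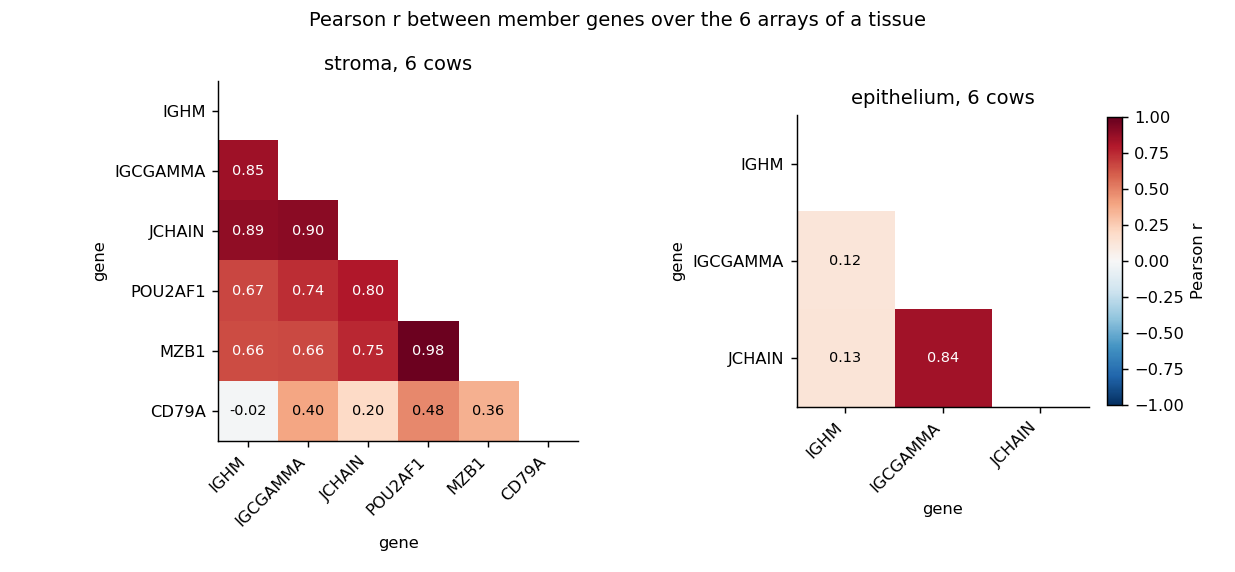
Pearson's r between genes over the 6 arrays of stroma (left, 15 pairs) and of epithelium (right, 3 pairs), each square labelled with its value and coloured from -1 (blue) to 1 (red). The darkest square in stroma is POU2AF1 with MZB1, 0.98, and CD79A is the row with the lowest values.

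In epithelium IGHM, IGCGAMMA and JCHAIN had a mean above that median, which left 3 pairs, with IGHM below it in cows 3 and 6. IGCGAMMA with JCHAIN had r = 0.839 (exact p = 0.0458, adjusted over the 3 pairs 0.138) and rho = 0.60 (exact p = 0.242, adjusted 0.725). It rests on cows 3 and 5, without which r was -0.70. IGHM had r = 0.12 to IGCGAMMA (exact p = 0.840, adjusted 0.846; rho = -0.26, exact p = 0.658, adjusted 0.803) and 0.13 to JCHAIN (exact p = 0.846, adjusted 0.846; rho = -0.14, exact p = 0.803, adjusted 0.803), or -0.20 and -0.78 without cows 2 and 5.

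No relation was detected between the level in the stroma of a cow and that in her epithelium. Over the 6 cows, r between the tissues was 0.30 for IGHM (exact p = 0.626; rho = 0.20, exact p = 0.714), -0.12 for IGCGAMMA (exact p = 0.896; rho = -0.14, exact p = 0.803) and 0.43 for JCHAIN (exact p = 0.447; rho = 0.37, exact p = 0.497). Adjusted over these 3 genes, each p of r was 0.896 and each p of rho was 0.803. Leaving out the 2 farthest cows gave 0.07, -0.70 and 0.68.

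Other genes of the pathway were taken from 7 lists with 150 genes, of which 94 had a probe set and 57 were tested, each by its brightest probe set. Of the 57, 4 were higher in stroma and 3 in epithelium, and 50 did not pass. Over all 5222 tested genes 4.48% were called higher in stroma and 4.62% in epithelium. The median stroma minus epithelium difference was -0.24 over the listed genes and -0.20 over all tested genes.

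Of 6 tested genes of antibody transport, 1 passed, as lower in stroma than in epithelium. PIGR, the receptor that carries IgA and IgM joined by the J chain across the epithelium, had 7.42, 6.26, 7.77, 6.69, 7.96 and 3.32 in stroma, against 9.44, 9.22, 10.03, 8.75, 9.92 and 8.78 in epithelium. Every stroma array was below every epithelium array, with cow 6 lowest in stroma. The difference was -2.79 (SE 0.52, limma adjusted p = 0.0112). FCGRT, the heavy chain of the neonatal Fc receptor that binds IgG, was lower in stroma in all 6 cows, 5.78 ± 0.53 in stroma and 6.79 ± 0.93 in epithelium (SD, n = 6 each), but did not pass (difference -1.01, SE 0.41, limma adjusted p = 0.181). Its partner B2M differed by -0.40 (SE 0.33, limma adjusted p = 0.509), and the 6 tested genes of the list had a median of -1.44.

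Of 4 tested signals that draw and keep plasma cells, 3 were higher in stroma, and the median of the 4 was 3.22. The list holds 20 genes, of which 19 had a probe set and 15 were outside those tested, so the 4 do not stand for the list. Stroma minus epithelium differences of the 15 ran from -2.64 to 1.94. TNFSF13B and TNFSF13, which are among the 15, differed by -0.48 and 0.22, and were higher in stroma in 1 and 4 of 6 cows. CXCL12, a chemokine that holds plasma cells in bone marrow, was 8.25 ± 0.54 in stroma and 3.51 ± 0.83 in epithelium (SD, n = 6 each), with every stroma array above every epithelium array (difference 4.74, SE 0.46, limma adjusted p = 0.000504). IL6, a growth factor of plasma cells, had 7.74, 7.65, 7.25, 5.08, 1.74 and 5.40 in stroma, against 1.63, 1.83, 2.18, 1.56, 1.61 and 1.45 in epithelium (difference 4.10, SE 0.74, limma adjusted p = 0.00994). All 6 epithelium arrays were below the array medians, so this difference was measured against background. IL6 was also at background in the stroma of cow 5, whose POU2AF1 and MZB1 were the highest. ICAM1, an adhesion molecule, was higher by 2.34 (SE 0.61, limma adjusted p = 0.0455), a call that was lost without any one of the 6 cows, at adjusted p from 0.0557 to 0.110. CXCL12 and IL6 are also made by fibroblasts, whose 10 listed genes were all higher in stroma, and the part of fibroblast RNA in these differences was not tested.

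A pair of chemokines outside the tested probe sets was picked out after their values were seen. CCL28, which draws IgA plasma cells to mucosa and to the mammary gland in mice, had 1.41, 1.89, 4.14, 1.65, 1.96 and 2.02 in stroma, against 6.98, 4.01, 4.03, 5.42, 3.96 and 4.52 in epithelium. It was lower in stroma in 5 of 6 cows, by 2.64 on average over the 6, and in a limma fit of all 24016 probe sets its adjusted p was 0.0970. CXCL13, which draws B cells to follicles, was 3.52 ± 1.19 in stroma and 1.58 ± 0.25 in epithelium and higher in stroma in all 6 cows, with an adjusted p of 0.0758 in that fit. The paper, which filtered by detection calls and fitted tissue without a cow term, lists CXCL13 as higher in stroma.

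**Figure D4:**
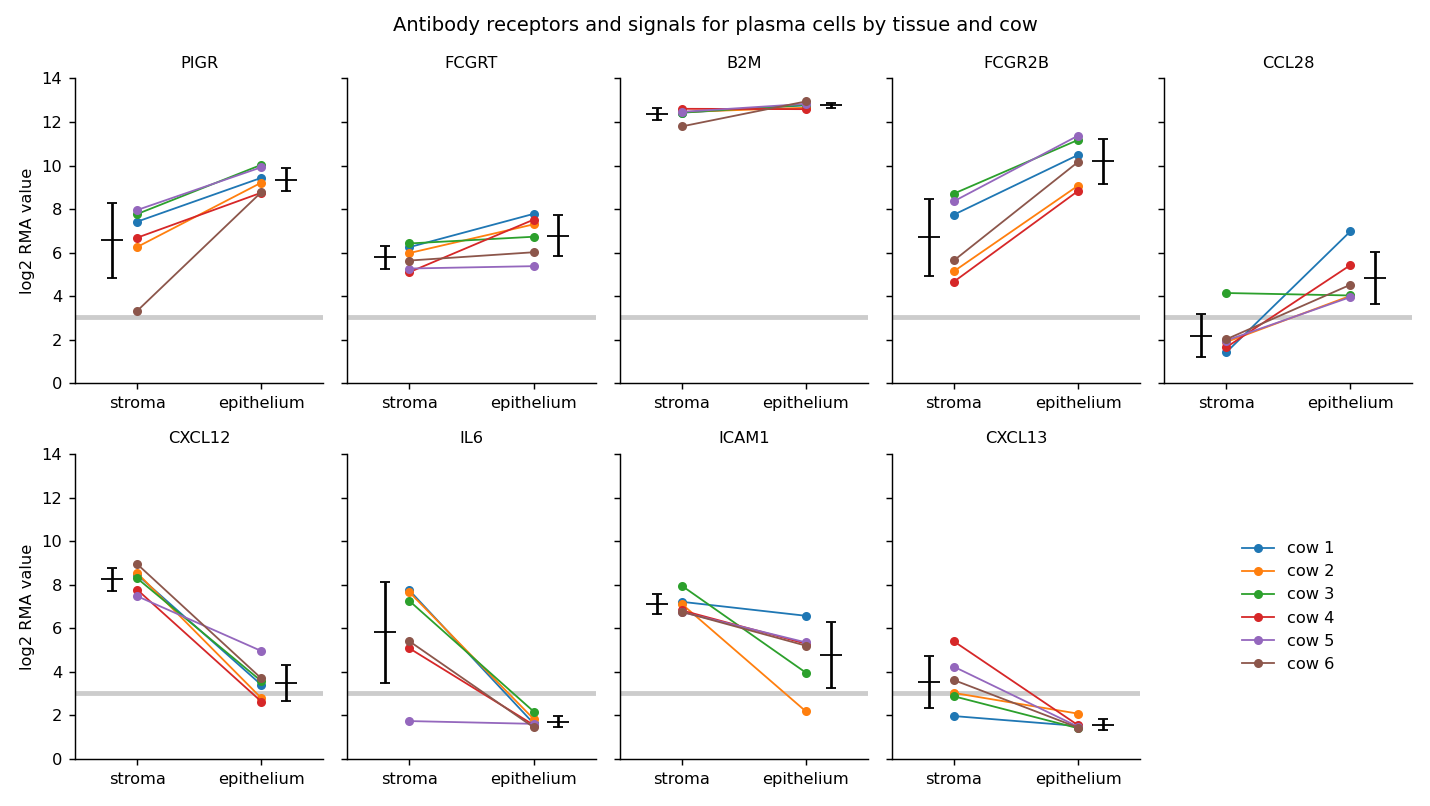
Log2 RMA value (vertical axis) of antibody receptors and of signals for plasma cells in stroma (left) and epithelium (right), with a line for each of the 6 cows and the mean and SD of the tissue beside the points. The grey band spans the array medians, 2.95 to 3.08. PIGR and FCGR2B are lower and CXCL12 higher in stroma than in epithelium in all 6 cows, while IL6 in the stroma of cow 5 lies with the epithelium arrays.

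Genes that act in the B cell receptor pathway moved both ways. FCGR2B, an inhibitory Fc receptor found on B cells and on myeloid cells, was lower in stroma in all 6 cows, at 6.71 ± 1.76 in stroma and 10.19 ± 1.05 in epithelium (difference -3.48, SE 0.40, limma adjusted p = 0.00109). LYN, a kinase of that pathway, differed by -1.84 (SE 0.44, limma adjusted p = 0.0351), and leaving out any cow but cow 3 ended the call, at adjusted p from 0.0718 to 0.109. CD83, a surface protein of activated B cells and dendritic cells, was higher in stroma by 2.09 (SE 0.52, limma adjusted p = 0.0406), and leaving out any cow but cow 6 ended the call, at adjusted p from 0.0801 to 0.112. A second tested probe set of CD83 differed by only 0.12. CD40 (0.87, limma adjusted p = 0.349) and PRKCB (-0.56, limma adjusted p = 0.523) did not pass, and 10 further genes of the list were outside those tested.

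None of the 8 tested transcription factors of the B lineage and none of the 10 tested genes of plasma cell identity passed by the brightest probe set, with medians of 0.70 and -0.07. PRDM1, the factor that sets the plasma cell programme, was read by 3 probe sets that disagreed. The brightest was 5.70 ± 1.47 in stroma and 3.83 ± 1.37 in epithelium (difference 1.87, SE 0.82, limma adjusted p = 0.209, higher in stroma in 4 of 6 cows), and another tested one differed by 0.21. The one outside those tested had 3.45, 5.39, 5.14, 3.79, 7.40 and 4.97 in stroma, against 2.23, 1.47, 1.94, 2.32, 1.94 and 2.29 in epithelium, with no overlap, and in the limma fit of all 24016 probe sets it passed, with a difference of 2.99 (SE 0.56, adjusted p = 0.0359), where the brightest did not (adjusted p = 0.322). MEF2C, a factor of B cells and also of muscle and vessels, was higher in stroma in 6 of 6 cows by 1.31 (limma adjusted p = 0.158), and CXCR4, the receptor for CXCL12, by 1.11 in 5 of 6 cows (limma adjusted p = 0.238). The differences ran from -0.33 to 1.49 over the transcription factors and from -1.80 to 1.87 over the plasma cell genes, of which 7 more were outside those tested. Of 18 further immunoglobulin genes listed, light chains among them, 1 had a probe set, outside those tested.

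The folding and secretion machinery that a plasma cell needs in quantity is also used by the milk-making epithelium. None of its 24 tested genes passed by the brightest probe set, and their median was -0.42. HSPA5, the chaperone that holds free heavy chains, was 10.27 ± 0.29 in stroma and 10.88 ± 0.49 in epithelium by its brightest probe set (difference -0.61, limma adjusted p = 0.321). Its other tested probe sets differed by -1.67 (limma adjusted p = 0.0338) and -2.79 (limma adjusted p = 0.00581), so the outcome for HSPA5 depends on the probe set. HSP90B1, a chaperone of the same compartment, differed by -0.40 (limma adjusted p = 0.504).

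Genes most like IGHM and JCHAIN were sought over the 12 arrays after subtraction of the mean of each tissue, among 5218 genes, as a description. For IGHM these were MPDU1 (r = 0.86), P4HA1 (0.82), TSPAN4, SOCS3, RPS6KB2, LAPTM5, ABRACL and LOC511425 (0.77 to 0.79). For JCHAIN they were KLHDC3 (r = 0.96), LUM (0.89), ABCA3, IVD, RHBDD2, GRAMD2B, CCDC149 and MRPL30 (0.80 to 0.83). IGCGAMMA followed JCHAIN with r = 0.77, and IGHM followed JCHAIN with 0.20 and IGCGAMMA with 0.32. LUM, a matrix gene of fibroblasts, is on the fibroblast list, and these values rest in large part on the spread among the epithelium arrays, which was wider than that among the stroma arrays for both IGHM and JCHAIN.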

How the data were processed

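RNA of laser-captured stroma and epithelium was amplified and hybridized to the bovine GeneChip by the authors. The deposited values are log2 expression values from RMA, which the authors ran on 24 arrays together, 12 of them used here. The quantile step of RMA makes the arrays share a distribution, so values are relative to it. The number of arrays, 6 per tissue, limits the precision.

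The members and the lists were chosen with earlier results of these data known. Symbols came from the platform annotation, where 13292 probe sets had 1 symbol, 86 several and 10638 none. The probe sets with the highest mean, as many as the study kept by detection calls, were fitted (R 4.3.3, limma 3.58.1) with tissue and cow as terms and Benjamini-Hochberg adjustment. The fit was tested on simulated data. Both tissues of a replicate number were taken as 1 cow. Their deviations from the tissue mean correlated at 0.03 to 0.20, against averages of -0.03 to -0.003 with the other cows. This is a weak check of the pairing, with 0.03 for cow 2. Cows 3 to 6 share lactation number 1, so that label does not check their pairing. Correlations used all 720 orders of the 6 cows (Python 3.11.15, numpy 2.4.6, scipy 1.17.1, pandas 2.3.3, matplotlib 3.10.9).

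Named were all member probe sets, of each list up to 4 genes past the threshold with the largest differences, the defining B cell and plasma cell genes of interest whether or not they passed, and the 8 genes most like IGHM and JCHAIN. FCGRT, B2M, HSPA5 and HSP90B1 were added for their roles, and CCL28, CXCL13, TNFSF13B and TNFSF13 after their values were seen. Alternatives were no block, a random block, another prior, other filters, scalings and probe set rules, and leaving out cows.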

Additional observations from a re-analysis of the deposited data

Results flagged for a closer look

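Of 36 groups of 6 arrays checked with Dixon's criterion, 6 had an array far from the others, where chance alone flags a share of 0.05. In the stroma of cow 1, the second IGCGAMMA probe set was lowest at 9.38 (the nearest was 11.92) and JCHAIN was lowest at 10.64 (the nearest was 11.37). CD79A was highest at 7.79 in the stroma of cow 3 (the nearest was 3.70) and at 3.77 in the epithelium of cow 6 (the nearest was 2.52). The first MS4A1 probe set was highest at 3.41 in the stroma of cow 5 (the nearest was 1.71), a value close to background. PIGR was lowest at 3.32 in the stroma of cow 6 (the nearest was 6.26).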

How the results depend on the processing

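The members were chosen on this contrast, so their calls say nothing of stability. These calls are therefore not counted again for the other settings, of which leaving out cows 5 and 6 was chosen after seeing the data. Of the listed genes, 4 were higher in stroma, against 2 with no filter, 2 with the brightest 5000 probe sets, 4 with no replicate block and 1 to 3 when a cow was left out. In epithelium 3 were higher, against 5 with a random block, 5 with the mean over probe sets and 4 with no replicate block. CD83, LYN and ICAM1 lost their calls with no filter (adjusted p = 0.0814, 0.0550 and 0.101), and RAB11A, SPCS3 and HSPA5 gained one under some settings. The block changed the call of RAB11A, at -2.07, with limma adjusted p = 0.0720 with it and 0.0230 without it.

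Signs turned for 8 of the 35 listed genes followed one by one, all far from the threshold. The differences became 0.0609 for TCF3 and 0.186 for IRF8 with the mean over probe sets. Centring gave 0.0222 for IRF8, 0.0713 for MCL1, 0.144 for FKBP11 and 0.153 for SEC11C. Quantile normalization again gave 0.0851 for FKBP11 and 0.0776 for SEC11C, and omitting cows 5 and 6 gave 0.0683 for MCL1 and 0.0749 for FKBP11. With a cow left out the differences ran from -0.547 to 0.428 for IRF8, from -0.0423 to 0.903 for STAT6, from -0.267 to 0.610 for ITGB7, from -0.307 to 0.00395 for MCL1, from -0.205 to 0.112 for FKBP11, from -0.181 to 0.183 for SEC11C and from -0.709 to 0.127 for CRELD2. Over all 57 listed genes tested, 13 changed sign under at least 1 fit, 5 of them in the folding and secretion list.

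The median r in stroma, 0.67, was 0.37 by Spearman and 0.15 to 0.81 with a cow left out. The pair past the threshold became 0 to 0 with 5 cows, where 15 pairs cannot go below an adjusted p of 0.125. In epithelium the median of 0.13 ran from -0.40 to 0.63 with a cow left out and was -0.47 without cows 5 and 6. The cause was not tested.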
